A study of Mus musculus with 12 samples.

Results

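Mitochondrial ribosomal proteins are made in the cytosol from nuclear genes, imported into mitochondria and assembled there with ribosomal RNA copied from mitochondrial DNA. The resulting ribosome translates the few proteins that mitochondrial DNA still encodes, which are core subunits of the respiratory chain and of ATP synthase. Its large subunit, built mostly from proteins with Mrpl symbols, forms peptide bonds, and its small subunit, built mostly from proteins with Mrps symbols, reads the messenger RNA. Hematopoietic stem cells (HSCs), which sit in bone marrow and renew every blood lineage, are known at rest for a low dependence on respiration, which rises when they divide and differentiate. The genes were taken as every gene with a symbol of the Mrpl or Mrps series followed by a number, read through the annotation of the array. There were 77 of them, 48 Mrpl and 29 Mrps, among 19935 genes with 1 symbol, and all 77 lay above the filter on dim genes and were tested with 9967 genes in all.

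The HSCs, lineage- cells that were Sca-1+, c-kit+ and CD150+ but CD48-, were sorted, 5000 to 7000 per sample, from mice that were 2 to 3 months old. The 4 groups were female mice injected under the skin with 2 µg of estradiol (E2), the main estrogen, in 100 µL of corn oil, female mice given the oil alone, male mice given the same E2, and male mice given the oil alone. Each group had 3 arrays, which the series describes as 3 biological replicates from 3 mice. The sources used here give neither the strain nor the time between injection and sorting. Values are array intensities of 1 probe set per gene, and differences are on the log2 scale of the intensity plus 1.

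The median intensity of the 12 arrays ran from 143 to 159, and with 3 arrays a group their number sets the precision. Xist and, from the Y chromosome, Eif2s3y, Kdm5d and Uty matched the sex label on each array. Of the genes behind the sort, Kit and Slamf1 were well above the filter value of 182, while Cd48 read 62.8 to 116. Flt3, not part of the sort but checked as a gene low in HSCs, averaged 306 on female oil and 297 on male oil arrays. After E2 it averaged 137 in females and 145 in males, and its difference averaged over the sexes was -1.10 (adjusted p = 8.17e-05). Of 21 markers of mature blood, endothelial and stromal cells on the array, 9 lay below the filter on average, among them the granulocyte gene Ly6g, the erythroid gene Klf1, the B cell gene Cd79a and the monocyte gene Csf1r. The other 12 lay above it, also for some of the same lineages. They were Mpo, Elane, S100a8, S100a9, Gata1, Pf4, Itga2b, Nkg7, the T cell genes Cd3e and Cd4, and the stromal genes Col1a1 and Col1a2. The summed intensity of the 21 markers was 6173 to 13544 on female E2 arrays, 10543 to 18942 on female oil arrays, 8141 to 12382 on male E2 arrays and 9658 to 15602 on male oil arrays, and none was listed at 0. Mpo, a gene of granulocyte precursors, varied widely within groups, with 267, 375 and 1060.0 on female E2 arrays, 2775, 388 and 563 on female oil arrays, 77.2, 354 and 160.2 on male E2 arrays and 100.1, 322 and 1215 on male oil arrays. Averaged over the sexes, 3 of the 12 markers above the filter were lower after E2, Pf4, Nkg7 and Itga2b, and 1 was higher, Col1a2. Together that is 33.3% of the 12, against 8.9% of all tested genes that passed in either direction. Of 5 genes that mark HSCs, 2 fell, Kit by 0.32 (adjusted p = 0.0023) and Procr, which fell by 0.47 (adjusted p = 0.000537). The other 3 did not pass, with differences of -0.27 for Slamf1, -0.01 for Hlf and 0.13 for Mecom. The part of such cells in the values of the ribosomal genes was not tested.

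After E2 the 77 genes stood slightly above oil, and only 1 of them passed the test. The median difference averaged over the sexes was 0.07 on the log2 scale, a ratio of 1.05, against -0.01 over all tested genes. It was above 0 for 65 of the 77, or 84.4%, against 46.7% of all tested genes. In limma's fit over all genes, with a call at a Benjamini-Hochberg adjusted p under 0.05, Mrpl40 rose, 0 of the 77 fell and 76 did not pass. That is 1.3% of the 77 called, against 8.9% of all tested genes, of which 3.12% rose and 5.78% fell, so the count of calls is not a result about the family. At an unadjusted p under 0.05 there were 13 higher and 2 lower of 77, against 24.6% of all tested genes in either direction and 10.5% higher. The 95% intervals of the 77 differences reached at most 0.55 upward and -0.47 downward, with a median half-width of 0.16. In a sorted population, a change in the mix of cells and a change in the RNA per cell cannot be told apart.

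**Figure D1:**
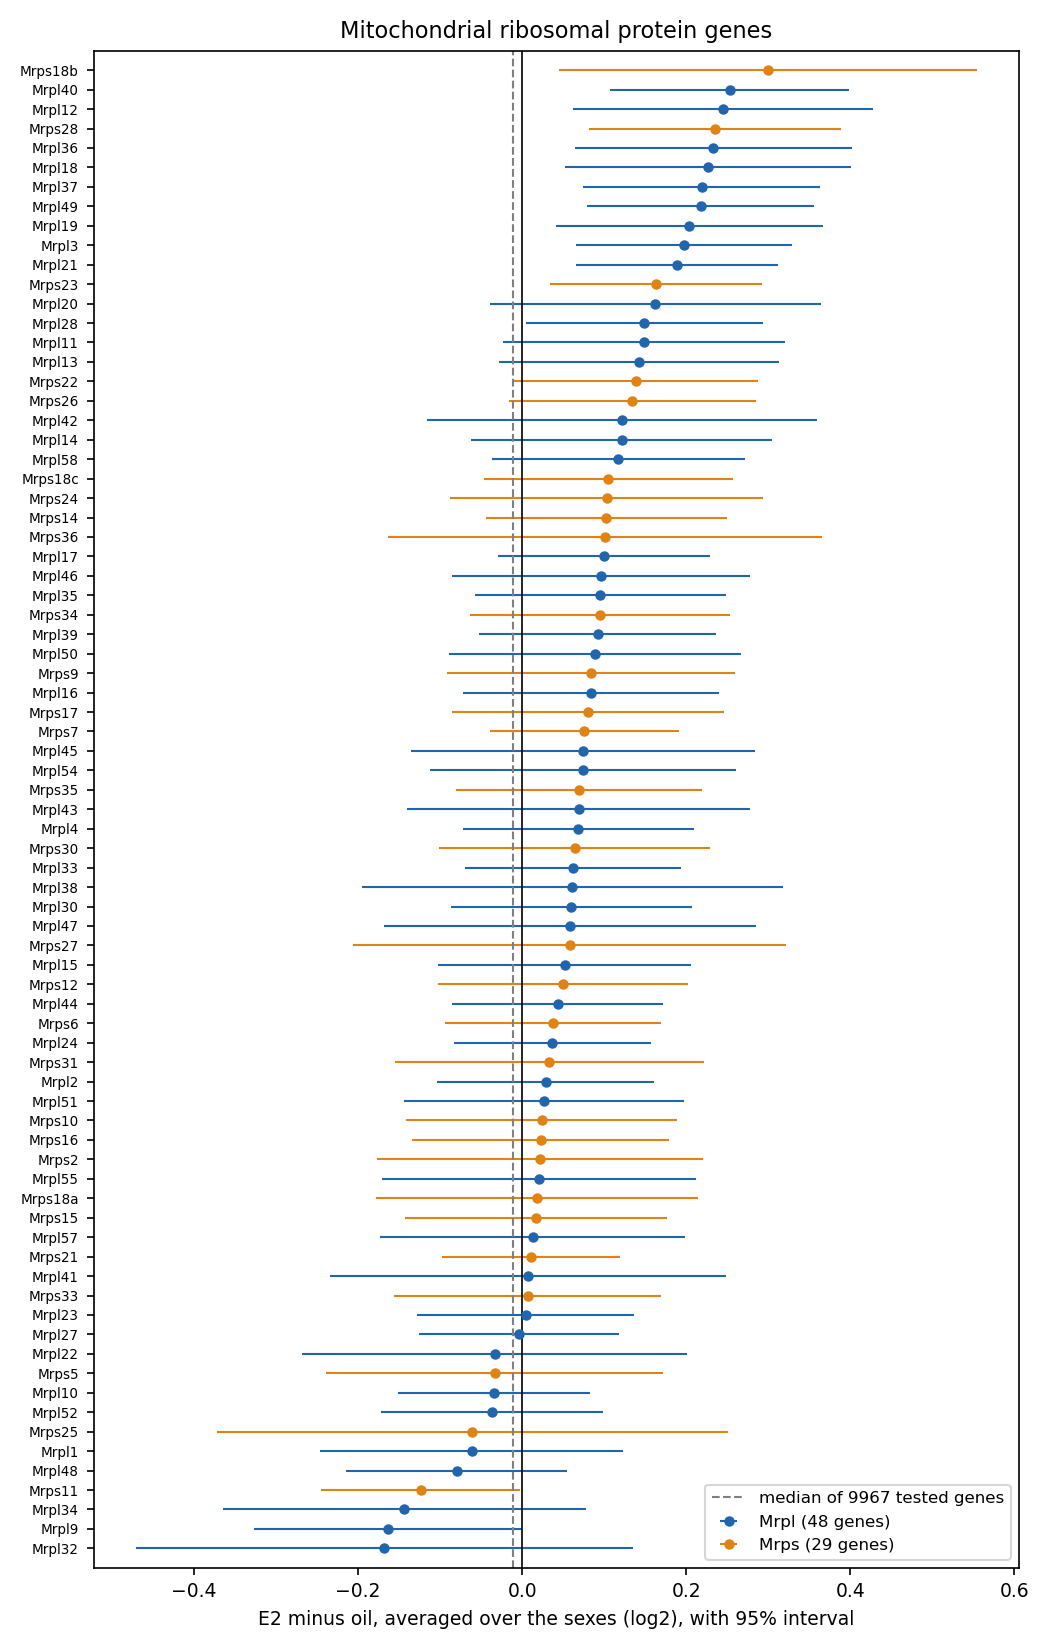
The averaged log2 difference, E2 minus oil, of each of the 77 mitochondrial ribosomal protein genes on the horizontal axis, with its 95% interval from limma's fit to 12 arrays, for 48 Mrpl and 29 Mrps genes. Points run from -0.17 for Mrpl32 to 0.30 for Mrps18b, 65 of the 77 lie right of 0, and the dashed line marks the median of all tested genes at -0.01.

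Mrpl40, a large subunit protein that bacterial ribosomes lack, gave the called increase. Its intensity was 791, 644 and 618 on female E2 arrays, 583, 536 and 576 on female oil arrays, 598, 637 and 576 on male E2 arrays and 512, 503 and 519 on male oil arrays. Every E2 array was above every oil array of the same sex, and female E2 replicate 1 was the highest of all. The averaged difference was 0.25 ± 0.07 (SE), a ratio of 1.19, with an adjusted p of 0.0352. In females the difference was 0.27 (adjusted p = 0.142) and in males 0.24 (adjusted p = 0.266). The call was lost without any 1 of the 6 male arrays or of the 3 female oil arrays, with adjusted p from 0.0505 to 0.0974, and it was kept without each female E2 array.

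The stretch before the Mrpl40 start is shown because this is the called gene. Mrpl3 was picked for a motif beside its start, and Mrps11 because its promoter is shared with another mitochondrial gene. Mrps12 and Mrpl43 were also picked for a shared promoter and are not shown. Except for Mrpl40, these genes were not picked by their response to E2, and their motifs do not stand for genes that rose or fell. Each run is 250 bases up to the base before the annotated start, 5′ to 3′ on the gene's own strand, from RefSeq on build GRCm38.p6. Mrpl40 is at chr16:18876638-18876887 on the minus strand, Mrpl3 at chr9:105053018-105053267 on the plus strand and Mrps11 at chr7:78782881-78783130 on the plus strand. Capitals mark a match, on either strand, to one of the short motifs searched, which are described after them.
Mrpl40: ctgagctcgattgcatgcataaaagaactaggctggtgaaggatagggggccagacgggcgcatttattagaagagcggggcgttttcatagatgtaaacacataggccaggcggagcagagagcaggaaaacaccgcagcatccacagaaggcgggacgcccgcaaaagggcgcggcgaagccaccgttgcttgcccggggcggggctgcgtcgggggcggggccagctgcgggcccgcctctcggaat
Mrpl3: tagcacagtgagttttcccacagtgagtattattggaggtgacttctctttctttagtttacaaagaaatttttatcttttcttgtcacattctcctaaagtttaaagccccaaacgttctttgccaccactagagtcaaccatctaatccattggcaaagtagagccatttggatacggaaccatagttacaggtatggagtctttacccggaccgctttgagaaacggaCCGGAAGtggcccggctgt
Mrps11: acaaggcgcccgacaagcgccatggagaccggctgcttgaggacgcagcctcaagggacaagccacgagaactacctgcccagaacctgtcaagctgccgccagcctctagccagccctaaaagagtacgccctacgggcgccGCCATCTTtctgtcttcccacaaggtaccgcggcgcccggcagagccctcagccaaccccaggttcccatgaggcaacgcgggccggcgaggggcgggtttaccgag
The capitals in Mrpl3 are the core of the site bound by ETS factors, a family that includes GABP, 19 bases before the start. The capitals in Mrps11 are the core of the YY1 site, 107 bases before the start. The Mrpl40 stretch held no match to any motif searched.

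Promoters were read from RefSeq windows of 300 bases, 250 before and 50 after the start, which were held for 68 of the 77 genes. GABP, NRF1 and YY1 are factors known from mammalian cells to act at promoters of nuclear genes for mitochondrial proteins. A gene was counted if any of its windows held the motif, and Mrpl2, Mrpl48 and Mrps16 had more than 1 window. The ETS core, CTTCCGG, was in 25 of the 68 genes, or 36.8%, against 21.4% of 7887 tested coding genes. The YY1 core, AAGATGGC, was in 12, or 17.6%, against 5.73%. The NRF1 core, CGCATGCG, was in 7, or 10.3%, against 4.74%. The E-box CACGTG, a site of MYC and other factors, was in 5, or 7.35%, against 11.9%. At least 1 of the 4 was in 39, or 57.4%, against 37.2%, and the median GC content was 58% against 61%. The palindrome of the estrogen response element, GGTCA and TGACC with 3 bases between them, was in 0 of the 68 genes and 0 of the tested coding genes, and in 0.0629% of all 17491 coding genes. These matches describe letters in a window and were not tested. The 9 genes without a window were Mrpl13, Mrpl15, Mrpl19, Mrpl38, Mrpl4, Mrpl54, Mrps28, Mrps34 and Mrps35.

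Many of these genes start back to back with another coding gene. Within 1000 bases of the start, 25 of the 68, or 36.8%, had a coding gene starting on the other strand, against 13.9% of tested coding genes. Mrpl40 starts 113 bases from Hira, a histone chaperone gene whose averaged difference was 0.14 (adjusted p = 0.249). Mrps11 and Mrpl46, a pair within the family, start 42 bases apart, with differences of -0.12 and 0.10. Of the 20 partners that were tested, which include Mrps11 and Mrpl46 as partners of each other, 12 were above 0, against 46.7% of all tested genes. Of these 20, 2 passed, against 8.9%, Ncapd2 beside Mrpl51 at 0.29 (adjusted p = 0.0447) and Zfp189 beside Mrpl50 at -0.32 (adjusted p = 0.0453).

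The genes next in order of p all lay above 0 and missed the threshold. Mrpl49, a large subunit protein specific to mitochondria, read 452, 480.4 and 527 on female E2 arrays, 439, 385 and 439.9 on female oil arrays, 419.9, 448 and 435 on male E2 arrays and 392, 342 and 379 on male oil arrays. Every E2 array of a sex was above its oil arrays, and the averaged difference was 0.22 ± 0.06 (SE; adjusted p = 0.0511). Mrpl21, a large subunit protein with a bacterial counterpart, read 1451, 1348 and 1284 on female E2 arrays, 1214, 1139.9 and 1272 on female oil arrays, 1326, 1370.3 and 1271 on male E2 arrays and 1111, 1127 and 1198 on male oil arrays. The groups again did not overlap in either sex, by a narrow margin in females, and the difference was 0.19 ± 0.06 (adjusted p = 0.0579). Mrpl3, which lies near the centre where peptide bonds form, read 625, 562 and 594 on female E2 arrays, 547, 529 and 496 on female oil arrays, 614, 714 and 618 on male E2 arrays and 555, 535 and 582 on male oil arrays. It too was separated in both sexes, at 0.20 ± 0.06 (adjusted p = 0.0625).

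Counted over the whole family, 4 genes had every E2 array above every oil array in both sexes, Mrpl3, Mrpl21, Mrpl40 and Mrpl49. That is 5.19% of the 77, against 2.32% of all tested genes, and 0 of the 77 were below in both sexes, against 4.88%. In males 20 of the 77, or 26%, had all E2 arrays above all oil arrays, against 13.6% of all genes, and 0 were below, against 13%. In females 7, or 9.09%, were above, against 6.95%, and 1, Mrps11, was below, against 13.1%.

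**Figure D2:**
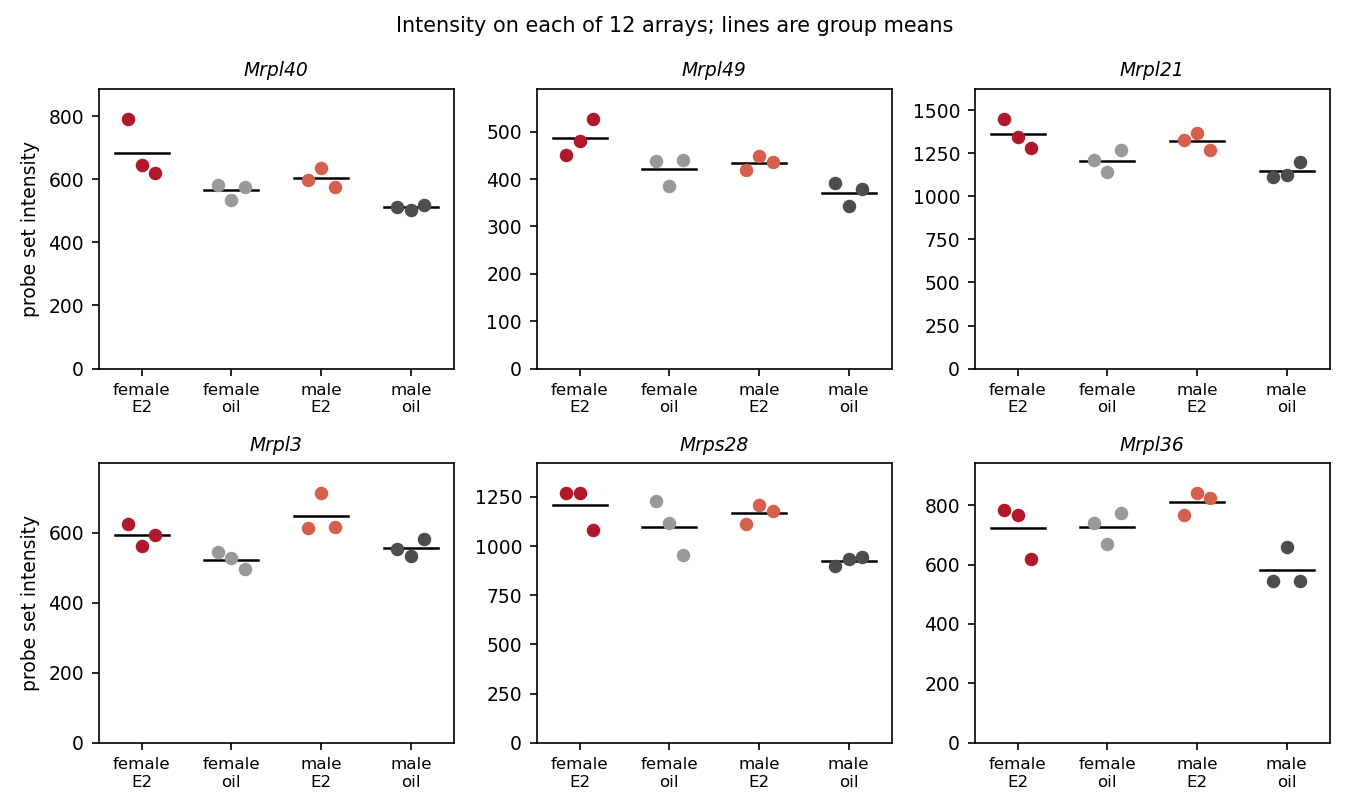
Probe set intensity on the vertical axis, from 0, on each of the 12 arrays for Mrpl40, Mrpl49, Mrpl21, Mrpl3, Mrps28 and Mrpl36, with female E2, female oil, male E2 and male oil arrays from left to right; lines are group means of 3 arrays. E2 and oil points are separate in both sexes for the first 4 genes and in males for Mrps28 and Mrpl36, whose female points overlap.

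Other large subunit genes followed. Mrpl37, specific to mitochondria, read 787, 679 and 797 on female E2 arrays, 627, 584 and 628 on female oil arrays, 741, 619 and 667 on male E2 arrays and 629, 635 and 570.1 on male oil arrays. The female groups were apart and the male groups overlapped, with differences of 0.30 (adjusted p = 0.11) in females and 0.14 (adjusted p = 0.527) in males. Mrpl12, which forms part of the stalk that recruits translation factors and is also known to bind the mitochondrial RNA polymerase, read 1249.7, 964 and 881 on female E2 arrays, 1001, 813 and 912 on female oil arrays, 988, 1083 and 1068 on male E2 arrays and 827, 819 and 874 on male oil arrays. Its groups overlapped in females and not in males, and the averaged difference was 0.24 ± 0.08 (adjusted p = 0.0912). Mrpl18, which in bacteria has a counterpart that binds the smallest ribosomal RNA, had 0.23 ± 0.08 (adjusted p = 0.101).

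Among small subunit genes, Mrps28, Mrps23 and Mrps18b stood highest. Mrps28 read 1269, 1268 and 1084 on female E2 arrays, 1228, 1117 and 953 on female oil arrays, 1113, 1209 and 1176 on male E2 arrays and 898, 936 and 942 on male oil arrays. The male groups were well apart and the female groups overlapped, and the averaged difference was 0.24 ± 0.07 (adjusted p = 0.0568). Mrps23 had 0.16 ± 0.06 (adjusted p = 0.11), with its groups apart in males and overlapping in females. Mrps18b had the largest difference of the family, 0.30 ± 0.12 (adjusted p = 0.134), with overlap in both sexes. It read 700.3, 485 and 462 on female E2 arrays, 487, 418 and 334 on female oil arrays, 462, 551 and 593 on male E2 arrays and 423, 462 and 512 on male oil arrays.

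Mrps18b is 1 of a trio of related genes whose proteins sit at different places in the mammalian ribosome. Mrps18c, like Mrps18b a small subunit protein, had a difference of 0.11 ± 0.07 (adjusted p = 0.394), and Mrps18a, which despite its symbol is part of the large subunit, had 0.02 ± 0.09 (adjusted p = 0.927). With these SEs the order of the trio is not settled. Mrps30, also a large subunit protein, had 0.06 ± 0.08 (adjusted p = 0.664). Mrps12, a small subunit protein of the decoding centre, read 1920.2, 1742 and 1624 on female E2 arrays, 1539, 1507 and 1766 on female oil arrays, 1707, 1569 and 1503 on male E2 arrays and 1798, 1571 and 1537 on male oil arrays. The groups overlapped in both sexes, and the averaged difference was 0.05 ± 0.07 (adjusted p = 0.721).

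The lowest differences belonged to Mrpl32, Mrpl9, Mrpl34 and Mrps11, and none of them passed. Mrpl32, a large subunit protein whose import form is cut by an inner membrane protease, read 636, 349 and 379.9 on female E2 arrays, 438, 507 and 633 on female oil arrays, 444, 457 and 497 on male E2 arrays and 444, 598 and 461 on male oil arrays. The arrays within each female group spread widely, the groups overlapped in both sexes, and the averaged difference was -0.17 ± 0.14 (adjusted p = 0.509). Mrpl9 and Mrpl34, large subunit proteins with bacterial counterparts, had -0.16 ± 0.08 (adjusted p = 0.203) and -0.14 ± 0.10 (adjusted p = 0.427). Mrps11, a small subunit protein with a bacterial counterpart, read 550.0, 542 and 525 on female E2 arrays, 609, 551 and 597 on female oil arrays, 531, 561 and 519 on male E2 arrays and 552, 623 and 587 on male oil arrays. It was lower on all 3 female E2 arrays and overlapped in males, at -0.12 ± 0.06 (adjusted p = 0.195).

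Split by symbol, the 48 Mrpl genes had a median averaged difference of 0.07 with 39 above 0, and the 29 Mrps genes had a median of 0.06 with 26 above 0. In females the medians were 0.07 for Mrpl and 0.07 for Mrps genes, and in males they were 0.10 and 0.04. A difference between the subunits was not tested. In signal, which depends on the probes and does not rank the genes, mean intensities ran from 196 for Mrpl43 to 2196 for Mrpl42. Mrpl42, a protein specific to mitochondria, read 3024, 1717 and 2196 on female E2 arrays, 2159, 1993 and 2401 on female oil arrays, 2139.6, 2366 and 2505 on male E2 arrays and 2074, 2005 and 2030.3 on male oil arrays. Female E2 arrays included both its highest and its lowest reading, and the averaged difference was 0.12 ± 0.11 (adjusted p = 0.548). Mrps21 and Mrpl23, also bright, had 0.01 and 0.00, and Mrpl43, Mrpl47 and Mrpl45, the dimmest, had 0.07, 0.06 and 0.07, none of them called.

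Of the 77 genes, 8 had more than 1 probe set, and averaged over the sexes the second set mostly followed the first. For Mrpl23, Mrpl41, Mrps33 and Mrps36, the 2 averaged differences were 0.00 and 0.00, 0.01 and 0.01, 0.01 and 0.01, and 0.10 and 0.11. Mrps36 is known as a protein of the alpha-ketoglutarate dehydrogenase complex rather than of the ribosome. The sets of Mrpl51 gave 0.03 and 0.04 and those of Mrps5 -0.03 and -0.07. Within each sex the Mrpl51 sets had opposite signs, -0.01 and 0.12 in females and 0.06 and -0.05 in males. The Mrps5 sets had opposite signs in males, 0.04 and -0.06. The sets of Mrpl27 gave 0.00 and -0.12, and those of Mrpl47, both close to the filter value, gave 0.06 and -0.01. Mrpl53 shared its probe set with Ccdc142 and was left out of the 77.

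In males the comparison of E2 with oil gave 0 calls among the 77 in limma's fit, against 1.43% of all tested genes. At an unadjusted p under 0.05 there were 13 higher and 0 lower, against 14.7% of all genes in either direction and 7.48% higher. The median difference was 0.08, against 0.00 over all genes, and 57 of 77, or 74%, were above 0, against 50% of all genes. Mrpl36, a small protein of the large subunit, came nearest to a call. It read 785, 768 and 618 on female E2 arrays, 739, 671 and 774 on female oil arrays, 768, 840.2 and 824 on male E2 arrays and 543, 659.7 and 546 on male oil arrays. The male groups were apart, while the female groups overlapped and the male oil arrays included the lowest readings. In males the difference was 0.48 ± 0.11 (SE; adjusted p = 0.0524), and in females it was -0.01 (adjusted p = 0.963). A call for Mrpl36 appeared in males without male oil replicate 2, female E2 replicate 1 or female E2 replicate 3.

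In females there were again 0 calls among the 77, against 3.56% of all tested genes. At an unadjusted p under 0.05 there were 4 higher and 0 lower, against 18.6% in either direction and 6.12% higher. The lowest adjusted p was 0.11, for Mrpl37. The median difference was 0.07, against -0.02 over all genes, and 55, or 71.4%, were above 0, against 44.2%. This tilt leaned on 1 array. Without female E2 replicate 1 the female median was 0.01, against -0.04 over all genes, and 39 of 77 were above 0. Averaged over the sexes, 52 of 77 were then above 0, with a median of 0.04 against -0.02.

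No gene of the 77 passed limma's test of a difference in response between the sexes. There were 0 calls, against 0.01% of all tested genes, and the lowest adjusted p was 0.842. At an unadjusted p under 0.05 there were 0 higher and 2 lower, against 5.37% of all genes. The median of the female response minus the male response was -0.02, against -0.04 over all genes, and 31 of 77 were above 0, against 40.5%. For Mrpl36 the difference of responses was -0.49 ± 0.16 (SE; adjusted p = 0.842), with an unadjusted 95% interval from -0.83 to -0.16. Mrpl36 was named for the smallest p among the 77, and its interval makes no allowance for that choice. Mrpl45, whose protein anchors the ribosome to the inner membrane, read 207, 209 and 247 on female E2 arrays, 245, 232 and 269 on female oil arrays, 252, 221 and 219 on male E2 arrays and 146, 189 and 227 on male oil arrays. Its male oil arrays reached from well below the filter value to above it, and its difference of responses was -0.49 ± 0.19 (adjusted p = 0.907). Mrps17 and Mrps30 followed at -0.33 and -0.29, with adjusted p of 0.932 and 0.954. The intervals had a median half-width of 0.33, without adjustment over genes. Differences between the sexes of that size could pass undetected, and so could larger ones, such as the -0.49 of Mrpl36 and Mrpl45.

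Gene by gene the responses of females and males were only loosely related within the family. Across the 77 genes, Pearson's r between the female and the male difference was 0.20, and across all 9967 tested genes it was 0.63. The genes of a list share their arrays and are not independent, and the range of responses among the 77 was narrow. Both differences were above 0 for 43 genes, or 55.8%, against 30% of all tested genes. Both were below 0 for 8, or 10.4%, against 35.7%: Mrpl1, Mrpl32, Mrpl34, Mrpl48, Mrpl52, Mrpl9, Mrps11 and Mrps25.

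**Figure D3:**
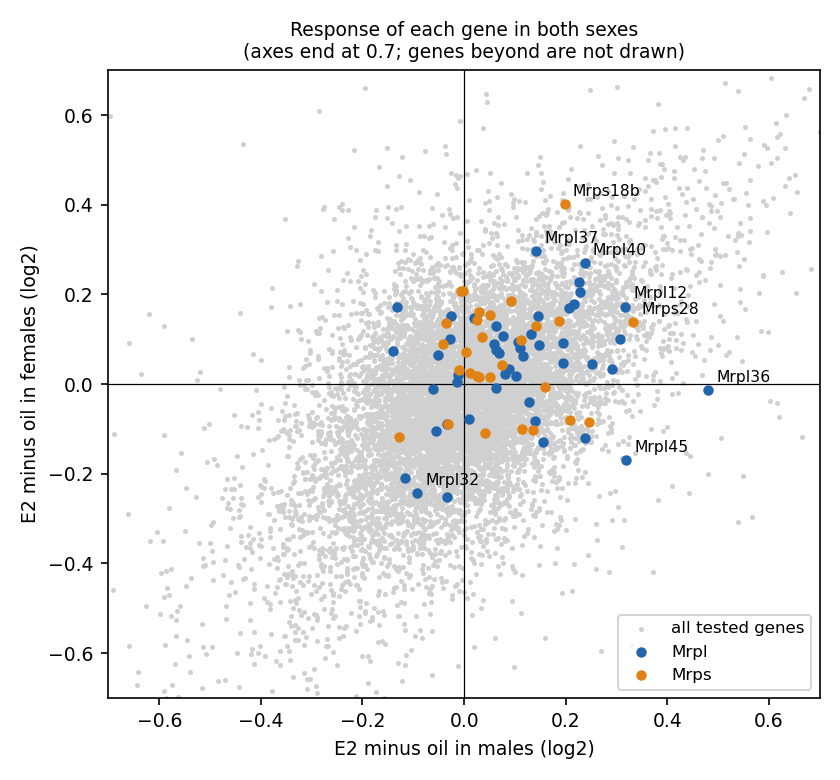
The log2 difference, E2 minus oil, of each gene in males on the horizontal axis and in females on the vertical axis, for the 48 Mrpl and 29 Mrps genes over all tested genes, with both axes ending at 0.7. Of the 77 genes, 43 lie above 0 in both sexes, Mrpl40 lies at 0.24 and 0.27, and Mrpl36 lies far to the right at 0.48 and close to 0 in females at -0.01.

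Female and male HSCs were compared under each treatment. Under E2 there were 0 calls among the 77, against 0.01% of all tested genes, with 1 higher in females and 0 lower at an unadjusted p under 0.05, against 9.04%. The median difference was 0.02, against -0.04, and 43 of 77 were above 0, against 38.7%. Under oil there were also 0 calls, against 0.0401%, with 5 higher and 0 lower at an unadjusted p under 0.05, against 4.99%. The median was 0.06, against 0.00, and 48 of 77 were above 0, against 49.2%. The Mrpl genes had an oil median of 0.10, with 37 of 48 above 0, and the Mrps genes had -0.03, with 11 of 29 above 0. Every female oil array was above every male oil array for 12 of the 77, or 15.6%, against 5.65% of all genes, and below for 2, Mrpl17 and Mrps22, against 7.29%. Mrpl45 had the smallest p, at 0.42 higher in females (adjusted p = 0.836). Mrpl47 followed at 0.40, with 252, 234 and 228 on female oil arrays and 167, 201 and 173 on male oil arrays, some of them below the filter value. Its other probe set read 178, 189 and 189 on female oil arrays and 162, 196 and 154 on male oil arrays, which overlapped. The place of Mrpl47 among the 12 thus rests on the probe set used.

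Array by array, the family level moved most in female E2 replicate 1. Relative to the oil mean of each gene, the median of the 77 genes was 0.21, 0.07 and 0.00 on female E2 arrays 1 to 3, and 0.05, -0.05 and 0.08 on female oil arrays. It was 0.07, 0.06 and 0.06 on male E2 arrays and -0.06, 0.00 and -0.03 on male oil arrays. The male E2 arrays lay close together and above all male oil arrays, whereas the female E2 arrays overlapped the female oil arrays, with replicate 1 above all of them and replicates 2 and 3 within their range. Averaged over genes and then arrays, the level was 0.08 ± 0.12 (SD, n = 3) in female E2, 0.03 ± 0.06 in female oil, 0.06 ± 0.01 in male E2 and -0.03 ± 0.05 in male oil arrays. Female E2 replicate 1 held the highest reading of 38 of the 77 genes, or 49.4%, whereas it held that of 17.9% of all tested genes.

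The levels of genes of DNA replication were read on the same arrays. The median of 20 S phase genes was 0.74, 0.14 and 0.03 on female E2 arrays 1 to 3, 0.21, -0.21 and -0.04 on female oil arrays, 0.29, 0.52 and 0.34 on male E2 arrays and 0.08, -0.11 and 0.07 on male oil arrays. Their summed intensity was 15191 to 23593 on female E2 arrays, 12787 to 16884 on female oil arrays, 18170 to 20868 on male E2 arrays and 13936 to 15767 on male oil arrays. On average over the sexes 19 of the 20, or 95%, were above 0, against 46.7% of all tested genes, with a median of 0.33. Of the 20, 4 rose, or 20%, against 3.12% of all tested genes: Cdc6, Uhrf1, Tk1 and Mcm5. Both sets of genes were highest on female E2 replicate 1, and in both all male E2 arrays were above all male oil arrays. Female oil replicate 2 was lowest for the S phase genes, at -0.21, and low for the ribosomal genes, at -0.05. On some other arrays their order differed. The second highest S phase level, on male E2 replicate 2, went with a ribosomal median of 0.06, and the second highest ribosomal median, 0.08 on female oil replicate 3, went with an S phase level of -0.04. The part of cycling cells in the ribosomal values was not tested.

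**Figure D4:**
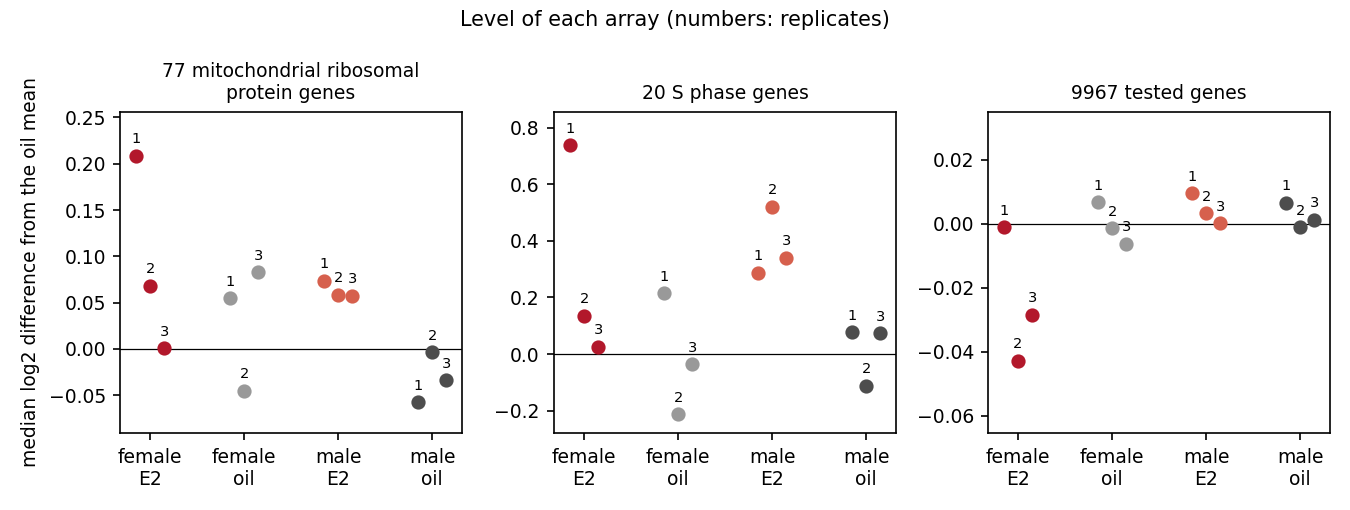
The median log2 difference from the oil mean on the vertical axis, for the 77 mitochondrial ribosomal protein genes, 20 S phase genes and 9967 tested genes, with 1 point per array and its replicate number, and female E2, female oil, male E2 and male oil arrays from left to right. Female E2 replicate 1 stands highest for the ribosomal genes, at 0.21, and for the S phase genes, at 0.74, and the vertical scales of the panels differ.

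Within groups the 77 genes moved together more than genes at large. After removal of the group means, the median Pearson's r over the 2926 pairs was 0.27, against 0.01 over pairs of tested genes, and 24.9% of pairs had an r above 0.5, against 12.5%. Without female E2 replicate 1 the median was 0.13, against 0.00. Pairs of Mrpl genes had a median of 0.29, pairs of Mrps genes 0.24 and mixed pairs 0.27. These values come from 12 arrays that all genes share and are given as a description. The spread of single genes was ordinary: the median residual SD was 0.13 for the 77 and 0.14 for all genes, and within groups it was 0.16 in female E2, 0.11 in female oil, 0.07 in male E2 and 0.11 in male oil arrays.

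The genes whose 12 readings were most like the family mean included subunits of the respiratory chain. Cox5a, of cytochrome c oxidase, came first with a Pearson's r of 0.95 over the 12 arrays, followed by Eif4ebp1, an inhibitor of translation initiation, at 0.95, Uqcrq of complex III at 0.94, Polr2l, a subunit of RNA polymerases, at 0.94 and Ndufa5 of complex I at 0.93. With group means removed, Cox5a was again first at 0.97, followed by Atp5k of ATP synthase, Nedd8, a ubiquitin-like modifier, Ckap2, a spindle protein, and Ifitm2, an interferon-induced membrane protein, at 0.96 each. Without female E2 replicate 1 the r of Cox5a over the remaining arrays, with group means kept, was 0.89. On that measure Eif4ebp1 had 0.87, Uqcrq 0.845, Polr2l 0.841 and Ndufa5 0.826. The other genes listed with group means removed were lower, with Atp5k at 0.778, Nedd8 at 0.688, Ckap2 at 0.647 and Ifitm2 at 0.308. Over all 12 arrays Ifitm2 had 0.564. The r with group means removed was not computed without that array. None of these genes passed the averaged test, and Cox5a had a difference of 0.13 (adjusted p = 0.317).

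Other parts of the mitochondrial translation machinery were read from lists of genes. For comparison, 8.9% of all tested genes were called on average over the sexes and 46.7% were above 0. Of ribosome proteins with other names, Dap3, Ptcd3, Chchd1 and Gadd45gip1 were tested, 0 were called and all 4 were above 0, with a median of 0.14. Ptcd3, a small subunit protein, had 0.19 ± 0.07 (adjusted p = 0.0945), and Chchd1 had 0.19 ± 0.08 (adjusted p = 0.135). Of 24 tested genes for ribosome assembly, 0 were called and 14 were above 0, with a median of 0.02. Of 17 tested translation factors, 0 were called and 12 were above 0, with a median of 0.02. The elongation factor Tufm had 0.28 ± 0.08 (adjusted p = 0.0555), and Gfm1, which moves the ribosome along the message, had 0.20 ± 0.07 (adjusted p = 0.105).

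The aminoacyl-tRNA synthetases of mitochondria, which charge tRNAs for this ribosome, held 1 called gene among 12 tested, and 9 were above 0, with a median of 0.11. That is 8.33% called, against 8.9% of all tested genes, so the count of calls is not a result about this list. The share above 0 was 75%, against 46.7%. Yars2, the tyrosine enzyme, read 580.3, 492 and 584 on female E2 arrays, 446, 405 and 373 on female oil arrays, 559, 539.7 and 521 on male E2 arrays and 393, 397 and 341 on male oil arrays. E2 and oil arrays were apart in both sexes, and Yars2 rose by 0.48 ± 0.07 (adjusted p = 0.00121). It also passed in each sex, at 0.44 in females (adjusted p = 0.0309) and 0.52 in males (adjusted p = 0.0182). Genes for mitochondrial DNA upkeep and transcription gave 0 calls among 9, with a median of 0.00. Regulators of mitochondrial biogenesis gave 0 calls among 6 tested, with a median of 0.03 and with Pprc1, a coactivator, highest at 0.25 ± 0.09 (adjusted p = 0.106). Of the 9 regulators listed, Ppargc1a, Ppargc1b and Esrra lay below the filter and were not tested.

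The ribosome of the cytosol and the respiratory chain were set beside the family. Of 55 cytosolic ribosomal protein genes, 1 rose, Rpl12 at 0.29 (adjusted p = 0.0379), 0 fell and 31 were above 0, with a median of 0.00. Of 77 respiratory chain and ATP synthase genes, 1 rose, Ndufb6 of complex I at 0.32 (adjusted p = 0.013), and 1 fell, Cox6b2, a testis form of a cytochrome c oxidase subunit, at -0.39 (adjusted p = 0.025). Of these 77, 61 were above 0, with a median of 0.07. Of all tested genes 3.12% rose, 5.78% fell and 46.7% were above 0. Among mitochondrial ribosomal protein genes 65 of 77 were above 0 with a median of 0.07, close to the respiratory chain and above the cytosolic ribosome, a difference between lists that was not tested.

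**Figure D5:**
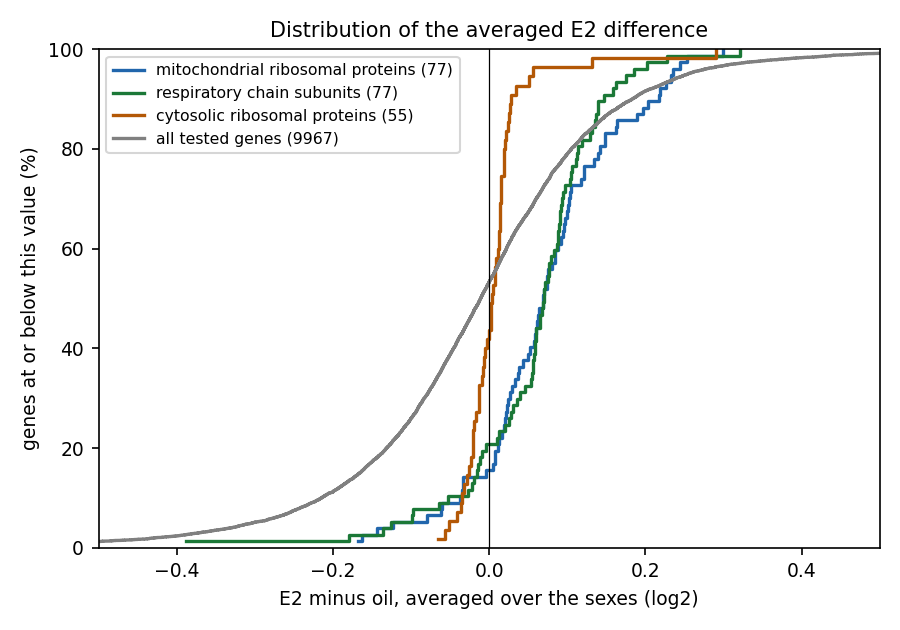
The share of genes in percent on the vertical axis at or below each averaged log2 difference, E2 minus oil, on the horizontal axis, for 77 mitochondrial ribosomal proteins, 77 respiratory chain subunits, 55 cytosolic ribosomal proteins and 9967 tested genes. The curves of the mitochondrial ribosomal proteins and of the respiratory chain run to the right of all tested genes, with medians of 0.07 each against -0.01, and that of the cytosolic ribosomal proteins rises steeply near its median of 0.00.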

How the data were processed

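Mouse HSCs were measured on 12 arrays, 4 groups of 3, with cDNA made by a whole transcriptome amplification kit from NuGEN and labelled with biotin, per the labels' protocols. The authors deposited linear intensity values of 35474 probe sets, from 0.62 to 16148; the sources used here do not give their summarisation and normalization. Those with 1 gene symbol in the platform annotation were used, and the set with the highest mean stood for a gene. All 77 Entrez identifiers matched RefSeq, which changed 0 symbols. The deposited intensities were taken as log2 of the value plus 1, and genes were kept where their mean exceeded the median over genes (log2 7.52, intensity 182). limma 3.58.1 in R 4.3.3 fitted 1 mean per group to all 12 arrays, with moderated statistics (eBayes, residual df 8, prior df 5.38). In each of 6 contrasts p-values were adjusted by Benjamini-Hochberg over 9967 genes. The steps were tested on simulated data. pandas 2.3.3, NumPy 2.4.6 and matplotlib 3.10.9 served promoters and figures.

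The text names called members, the 10 with the smallest averaged p, the 4 lowest, the 4 with the smallest p for the difference of responses, the 3 brightest and 3 dimmest, Mrpl12, Mrps12, Mrpl3, Mrps30 and the Mrps18 trio, members with several probe sets, the 5 genes most like the family on each measure, and, of other lists, called genes and up to 2 with the smallest p. The array check genes, Mpo, the HSC genes, Hira and the called partners, Mrpl17, Mrps22 and sets given in full by count were named after their values were seen. The members and lists were chosen with earlier results of these data known. The sample titles number the replicates and do not state a pairing, and the main fit used none. Of 18 pairs of same-numbered arrays, 4 had deviations that correlated above 0.1, with a range from -0.26 to 0.20. With 3 arrays a group this does not settle whether same-numbered arrays were handled together. Other settings tried were median centring, quantile normalization, an offset of 16, other filters, averaged probe sets, trended and robust eBayes, array weights, the compared groups alone, an adjusted p of 0.1, a replicate block, and leaving out each array. Counts above 0 under the alternatives were added after seeing the data.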

Additional observations from a re-analysis of the deposited data

How the results depend on the processing

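The count of the 77 genes called on average, 1 in the text, was 4 with quantile normalization, 4 with trended and robust eBayes, 2 with array weights and 8 at an adjusted p of 0.1. It was 0 with median centring, without a filter and with a filter at the 25th percentile, where the number of genes tested or the centre of the arrays differed. Leaving out 1 array gave 0 to 7: 0 without any male array or without female oil replicate 2 or 3, 1 without female oil replicate 1 (Mrps28 in place of Mrpl40), 2 without female E2 replicate 1 or 2, and 7 without female E2 replicate 3. In males the count of 0 became 1 with an offset of 16, trended and robust eBayes, array weights or an adjusted p of 0.1, 2 with the compared groups alone, and 0 to 1 when 1 array was left out. It was 0 under every alternative run in females, for the difference of responses and between the sexes. With the replicate block the averaged count stayed at 1, for Mrpl40 with an adjusted p of 0.049, and the block changed no other call among the members. The averaged median ran from 0.04 to 0.09, the male one from 0.07 to 0.11 and the female one from 0.01 to 0.12. These moves were smaller than the SD between arrays carried through the contrast, 0.07 for the average and 0.10 in each sex. That SD was larger than the medians themselves, so a median falling to 0 would also have stayed within it, and it does not show that the medians are stable. The averaged number of members above 0 ran from 52 to 67. The median of female minus male under E2 and that of the difference of responses changed sign under some settings, from -0.04 to 0.06 and from -0.08 to 0.03. Among 32 named members and 672 values under the alternatives, 602 kept both sign and call, 12 lost a call and 15 gained one. The other 43 changed sign, for members not called in the main fit. Only Mrpl40 was called there, so only its values could reverse a call, and 0 did. The fit of the compared groups alone was not run for the average or the difference of responses, which need all groups. With 3 arrays a group and no background level in the files, small differences of dim genes such as Mrpl43, Mrpl45 and Mrpl47 are the least certain.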
